A study of Mus musculus with 6 samples.

Results

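The aminoacyl-tRNA synthetases and the 3 scaffold proteins of the cytosolic synthetase complex were followed in mouse leukaemia cells given UNC0638 or DMSO. Members were the array rows annotated with a single gene symbol of the synthetase pattern (a capital letter, then ars, with or without 1, 2 or 3), together with Farsa, Farsb, Eprs, Tarsl2, Ears2, Aimp1, Aimp2 and Eef1e1. This gave 38 genes on 39 rows, of 19937 genes tested. They were 17 cytosolic enzymes or enzyme subunits (6 of them in the complex), 2 enzymes made for both compartments from 1 gene, 16 mitochondrial enzymes and 3 scaffold proteins. The row annotated to Aars also carries another gene, and it was therefore not used. Dars was not analysed here.

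Aminoacyl-tRNA synthetases join each amino acid to its tRNA with the energy of ATP, and so supply the charged tRNAs from which ribosomes build protein. Mammalian cells mostly keep separate nuclear genes for the cytosolic enzymes and for those imported into mitochondria. Several cytosolic enzymes sit in a large multi-synthetase complex held together by Aimp1, Aimp2 and Eef1e1. Uncharged tRNA is read by the kinase Gcn2 (gene Eif2ak4), which raises translation of Atf4, and many cytosolic synthetase genes are known targets of that factor and of Myc. Leukaemic blasts, like other growing cells, need this supply to make protein, and neither protein synthesis nor tRNA charging was measured here.

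The cells were mouse haematopoietic stem and progenitor cells transformed with HoxA9 and Meis1 (A9M cells), a culture model of acute myeloid leukaemia, kept in serum with IL3, IL6 and SCF. Arrays were made from 3 samples treated for 5 days with UNC0638, a compound that blocks the lysine methyltransferases G9a (Ehmt2) and GLP (Ehmt1), and from 3 samples treated for 5 days with the solvent DMSO. All 6 samples carry the HoxA9 and Meis1 transformation, and the dose of UNC0638 is not given in the sources used here. The labels do not say whether samples of a group were separate cultures or how many donor mice or clones they came from, and the p-values therefore rest only on how far these 6 samples scatter, part of which may be technical.

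Values are the intensities deposited by the authors, on a linear scale, and log2 differences are UNC0638 minus DMSO of log2(intensity + 16). Array medians were 52.7 to 54.9 in UNC0638 and 50.4 to 52.5 in DMSO, and the number of arrays limits the precision. The 10 myeloid and leukaemia identity genes checked, Hoxa9, Meis1, Kit and Ptprc among them, had DMSO means of 211 to 6031, while T cell, B cell and erythroid markers had DMSO means of 13.1 to 55.6. Of 4 fibroblast markers, Thy1, which some blood progenitors also express, had a DMSO mean of 3289 and the others had means of at most 99.7. In whole-culture RNA, fewer cells of a type and less RNA per cell cannot be told apart.

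Most synthetase transcripts had lower means after UNC0638, by modest amounts. Of the 38 genes, 34 had a log2 difference below 0, against 46.1% of all genes tested, and the median over the 38 was -0.23, against 0.012 over all genes. Aimp2 fell, the 1 member past the limma threshold of an adjusted p of 0.05, and 0 rose. In the same fit 0.301% of all genes passed downward and 0.371% upward, 0.672% in all. At an unadjusted limma p under 0.05, 21 members were lower and 0 higher, against 6.21% and 6.47% of all genes. In 23 members all 3 UNC0638 arrays lay below all 3 DMSO arrays, and in 0 they lay above, against 7.4% and 9.59% of all genes. Both downward shares over all genes were larger among brighter genes, as given below. Apart from Aimp2 the adjusted p of members ran from 0.105 to 0.996. The standard errors of members ran from 0.076 to 0.16.

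**Figure D1:**
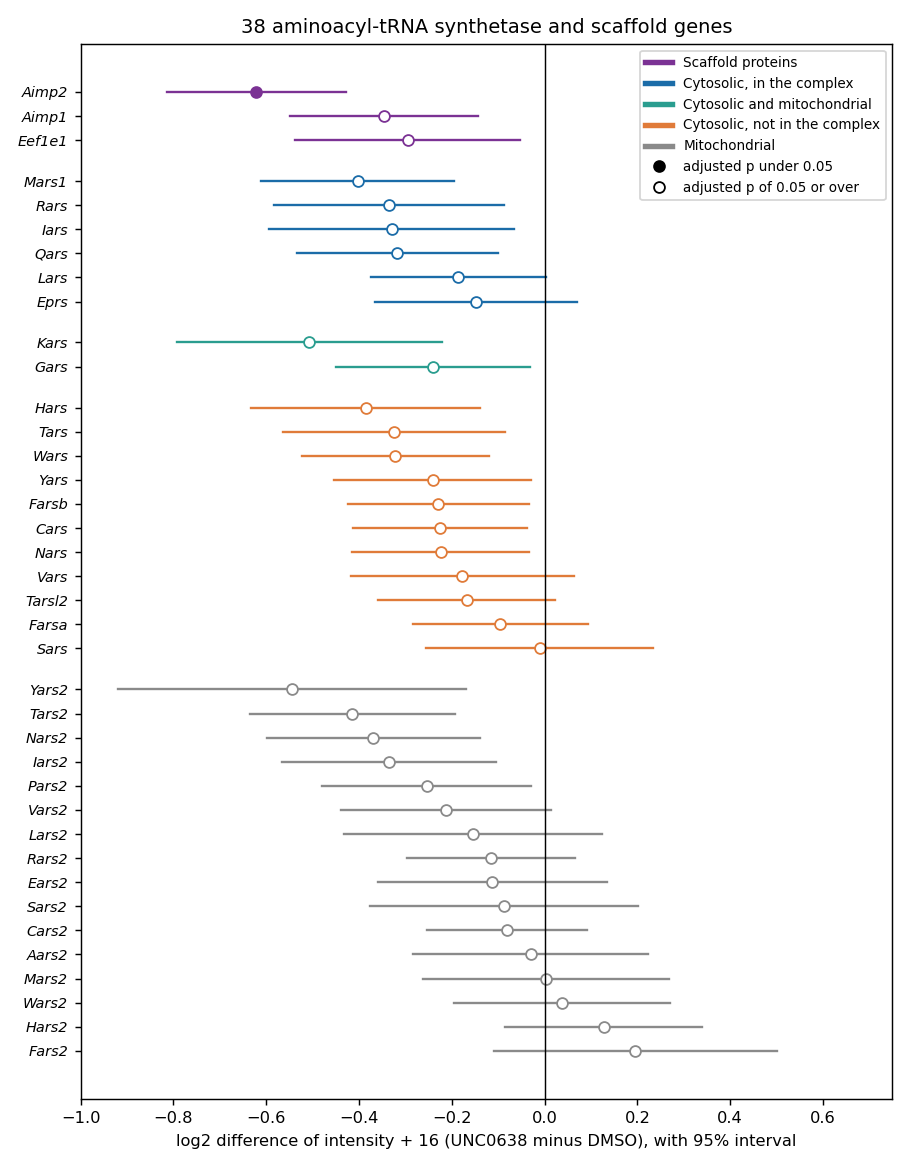
Log2 difference of intensity + 16 (UNC0638 minus DMSO) of the 38 genes with limma's 95% interval, grouped by role and ordered within each group. The filled point is Aimp2, past the adjusted threshold, and 34 of the 38 points lie left of 0.

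The scaffold proteins hold the cytosolic complex together, and all 3 had their UNC0638 arrays below their DMSO arrays, against 7.4% of all genes. All 3 had mean intensities above 400, and among all genes at 400 or above that share was 15.8%. Aimp2, which anchors lysyl-tRNA synthetase in the complex, had intensities of 551, 499 and 545 on the UNC0638 arrays, against 844, 868 and 769 on the DMSO arrays (probe set 10535502). The groups did not overlap, and each group held together closely. Aimp2 fell to 64.3% of its DMSO mean, with means of 532 ± 28.3 in UNC0638 and 827 ± 51.8 in DMSO (SD, n = 3 each, log2 difference -0.62, SE 0.084, limma adjusted p = 0.0244, 95% interval -0.81 to -0.43). Its size depended little on single arrays (-0.67 to -0.58), but the call was lost without UNC0638 1 (adjusted p = 0.0827), UNC0638 2 (0.102), UNC0638 3 (0.0734), DMSO 1 (0.0642) or DMSO 2 (0.0877), and it held without DMSO 3 (0.04).

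Aimp1, a tRNA-binding scaffold protein that also gives rise to a secreted cytokine, had intensities of 548, 465 and 511 on the UNC0638 arrays, against 677, 658 and 613 on the DMSO arrays. Every UNC0638 value was below every DMSO value, with a log2 difference of -0.35 (SE 0.089, limma adjusted p = 0.138). Eef1e1, also called Aimp3, binds methionyl-tRNA synthetase and had intensities of 881, 853 and 821 on the UNC0638 arrays, against 1097, 899.6 and 1167 on the DMSO arrays. The gap between its groups was narrow, with DMSO 2 close to the highest UNC0638 array, and the log2 difference was -0.30 (SE 0.106, adjusted p = 0.289).

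**Figure D2:**
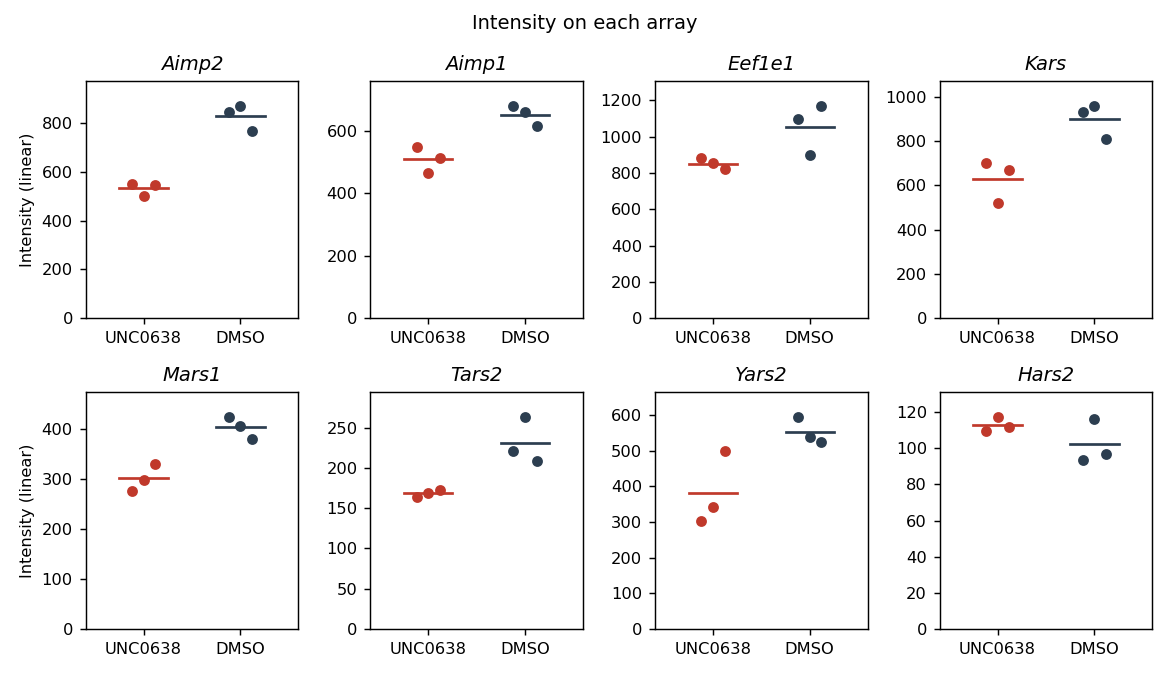
Deposited intensity (linear, axis from 0) on each of the 3 UNC0638 and 3 DMSO arrays for the 3 scaffold genes and 5 enzymes, with bars at the group means. The groups are apart for all but Hars2, whose UNC0638 mean of 113 lies above its DMSO mean of 102.

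The upstream sequences of Aimp2 and Kars are shown because these genes had the lowest log2 differences among the scaffold genes and among the enzymes that work in the cytosol. They are the 250 bases before the RefSeq start site in GRCm38.p6, on the minus strand in both cases, read 5′ to 3′, and capitals mark the CCAAT box, the letters CCAAT or their reverse complement ATTGG.
Aimp2 (chr5:143909840-143910089): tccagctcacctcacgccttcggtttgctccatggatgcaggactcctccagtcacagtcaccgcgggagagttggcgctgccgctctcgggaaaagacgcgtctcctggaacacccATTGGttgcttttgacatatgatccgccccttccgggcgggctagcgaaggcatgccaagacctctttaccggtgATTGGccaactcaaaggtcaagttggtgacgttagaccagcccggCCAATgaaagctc
Kars (chr8:112011355-112011604): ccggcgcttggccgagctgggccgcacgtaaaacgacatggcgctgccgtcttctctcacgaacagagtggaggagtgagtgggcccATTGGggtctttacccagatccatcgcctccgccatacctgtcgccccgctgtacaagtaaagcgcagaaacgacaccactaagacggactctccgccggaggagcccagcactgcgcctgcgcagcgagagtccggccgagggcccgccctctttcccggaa
Aimp2 has 3 such matches and Kars has 1. The CCAAT box was looked for after the values were known, and 37.4% of all promoters of 300 bases hold it. Members near 0 hold it too, Sars2 (-0.087) and Mars2 (0.0028) among them. Neither window holds TGATGNAA or CACGTG on either strand.

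Of the 6 measured enzymes that belong wholly to the cytosolic complex, all had log2 differences below 0, with a median of -0.32, and 0 passed the threshold. Mars1, which charges both initiator and elongator tRNA with methionine, was lowest among them, with intensities of 276, 297 and 330.0 on the UNC0638 arrays, against 423, 406 and 378 on the DMSO arrays. Its groups did not overlap (log2 difference -0.40, SE 0.091, limma adjusted p = 0.105). Rars, the arginyl enzyme, had intensities of 908, 1127 and 1127 on the UNC0638 arrays, against 1243, 1447 and 1303 on the DMSO arrays. Here too the groups were apart, with UNC0638 1 the lowest array by a wide margin (log2 difference -0.34, adjusted p = 0.239). Qars, the glutaminyl enzyme, had intensities of 494, 483 and 550.2 on the UNC0638 arrays, against 701, 625 and 589 on the DMSO arrays, and its groups did not overlap (log2 difference -0.32, adjusted p = 0.2).

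Iars, the isoleucyl enzyme, is read by 2 rows that disagree. The brighter one had intensities of 1592, 1703 and 2129 on the UNC0638 arrays, against 2298, 2123 and 2359 on the DMSO arrays, where UNC0638 3 lay just above DMSO 2 (log2 difference -0.33, SE 0.116, adjusted p = 0.276). The other had 652, 679 and 680.2 on the UNC0638 arrays, against 709, 611 and 717 on the DMSO arrays, with overlapping groups and a log2 difference of -0.014 (95% interval -0.21 to 0.19). The value for Iars is therefore uncertain, and over the mean of both rows it was -0.17. Iars lies on chromosome 13. The number of the brighter row (10345025) is near that of Mars2 on chromosome 1 (10346323). That of the other row (10405094) is near that of Fars2 on chromosome 13 (10404597). Which locus each row reads was not checked. Lars, the leucyl enzyme, which also takes part in leucine sensing, had a log2 difference of -0.19 (adjusted p = 0.403), with UNC0638 values up to 939 below DMSO values from 982. Eprs, a fused enzyme that charges both glutamate and proline tRNAs, was the highest of the 6, by the brighter Iars row, at -0.15 (95% interval -0.37 to 0.070). Its intensities were 1237, 1229.8 and 1495 on the UNC0638 arrays, against 1502, 1435 and 1442 on the DMSO arrays. UNC0638 3 lay among the DMSO arrays, so that the groups overlapped.

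Kars and Gars each make a cytosolic and a mitochondrial enzyme from 1 gene, and the array row does not separate the forms. Kars, the lysyl enzyme, joins the complex through Aimp2 and had intensities of 703, 519.8 and 671 on the UNC0638 arrays, against 930.1, 957 and 809 on the DMSO arrays. All UNC0638 values were below all DMSO values, with UNC0638 2 the lowest, as it also was for Aimp2. Kars was at 70.2% of its DMSO mean (log2 difference -0.51, SE 0.125, limma adjusted p = 0.129), ranging from -0.59 to -0.38 over the alternatives, with an adjusted p of 0.0903 at the lowest. Gars, the glycyl enzyme, had intensities of 1280.0, 1425 and 1549 on the UNC0638 arrays, against 1701, 1599 and 1720.3 on the DMSO arrays. Its groups did not overlap either (log2 difference -0.24, adjusted p = 0.319). Counted with Kars and the scaffold proteins, the 10 measured genes of the complex had a median of -0.33, with Iars by its brighter row. Of them 10 of 10 lay below 0, against 46.1% of all genes. In 8 of 10 the groups did not overlap, UNC0638 being lower, against 7.4% of all genes, Iars and Eprs being the exceptions.

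The 11 cytosolic genes outside the complex had log2 differences of -0.39 to -0.011, with a median of -0.23, and 0 passed the threshold. Hars, the histidyl enzyme, was lowest, with intensities of 643, 554 and 711 on the UNC0638 arrays, against 785, 908 and 808 on the DMSO arrays. Its groups were apart (log2 difference -0.39, SE 0.108, limma adjusted p = 0.172). Tars, the threonyl enzyme, had intensities of 691, 696 and 831 on the UNC0638 arrays, against 1026, 883 and 877 on the DMSO arrays. The UNC0638 arrays were all lower, UNC0638 3 by the least (log2 difference -0.32, adjusted p = 0.235). Wars, the tryptophanyl enzyme, is known in human cells as an interferon-gamma-induced gene and had intensities of 179, 197 and 217 on the UNC0638 arrays, against 247, 245 and 259.6 on the DMSO arrays. The groups did not overlap and the DMSO arrays lay close together (log2 difference -0.32, SE 0.088, adjusted p = 0.163).

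Farsb, Cars, Nars and Yars had closely similar log2 differences, and in each the groups did not overlap. Farsb, the beta subunit of the phenylalanyl enzyme, had intensities of 1128, 992 and 1114 on the UNC0638 arrays, against 1286, 1196 and 1313 on the DMSO arrays (log2 difference -0.23, limma adjusted p = 0.307). Cars, the cysteinyl enzyme, had intensities of 157, 180.0 and 163 on the UNC0638 arrays, against 189.7, 198 and 205 on the DMSO arrays (log2 difference -0.23, adjusted p = 0.296). Nars, the asparaginyl enzyme, had intensities of 1618, 1668 and 1858 on the UNC0638 arrays, against 1933, 2033 and 2042 on the DMSO arrays (log2 difference -0.22, adjusted p = 0.304).

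Yars, the tyrosyl enzyme, had intensities of 211, 249 and 206 on the UNC0638 arrays, against 277, 252 and 264 on the DMSO arrays. UNC0638 2 nearly met DMSO 2 there, while the other arrays were further apart (log2 difference -0.24, limma adjusted p = 0.326). Vars, the valyl enzyme, which travels with elongation factor 1, was at -0.18 with overlapping groups, and Tarsl2, another threonyl enzyme, at -0.17 with groups apart. Neither had an interval that left out 0.

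The remaining cytosolic genes showed little or no difference. Farsa, the alpha subunit of the phenylalanyl enzyme, had a log2 difference of -0.095 (95% interval -0.28 to 0.094), with overlapping groups. Sars, the seryl enzyme, was at -0.011 (95% interval -0.26 to 0.23) and at 0.034 after quantile normalization. Its intensities were 689.9, 889 and 873 on the UNC0638 arrays, against 819.7, 795 and 841 on the DMSO arrays. Sars was lowest on UNC0638 1 and highest on UNC0638 2, so that the spread within the UNC0638 group exceeded the difference between groups. Its interval leaves out differences below -0.26, and many members, Aimp2, Kars and Hars among them, had estimates below that. The intervals of Kars (-0.79 to -0.22) and Hars (-0.63 to -0.14) overlapped that of Sars, and no member was tested against Sars.

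The 16 mitochondrial enzymes ranged more widely, with log2 differences of -0.54 to 0.20 and a median of -0.11. Of these 12 lay below 0, against 46.1% of all genes, and 0 passed the threshold. At an unadjusted limma p under 0.05, 5 of the 16 were lower and 0 higher, against 6.21% and 6.47% of all genes. Yars2, the mitochondrial tyrosyl enzyme, was lowest, with intensities of 303, 342 and 501 on the UNC0638 arrays, against 595, 539 and 525 on the DMSO arrays. Its groups did not overlap, but UNC0638 3 came close to the DMSO arrays (log2 difference -0.54, SE 0.164, adjusted p = 0.205). Without UNC0638 3 the log2 difference was -0.75 and the adjusted p 0.0526. Tars2, the threonyl enzyme, had intensities of 163, 169 and 173 on the UNC0638 arrays, against 221, 263 and 209 on the DMSO arrays. The UNC0638 arrays were tightly grouped and all lower (log2 difference -0.42, SE 0.097, adjusted p = 0.114). Nars2, the asparaginyl enzyme, had intensities of 78.7, 83.6 and 99.3 on the UNC0638 arrays, against 115, 127 and 109 on the DMSO arrays and groups that did not overlap (log2 difference -0.37, adjusted p = 0.158).

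Iars2, the mitochondrial isoleucyl enzyme, had intensities of 258, 278 and 325 on the UNC0638 arrays, against 385, 370.4 and 341 on the DMSO arrays, with every UNC0638 array lower (log2 difference -0.34, limma adjusted p = 0.202). Pars2, the prolyl enzyme, was dim, with a DMSO mean of 45.2 below the array medians, and had a log2 difference of -0.25 (adjusted p = 0.328). Its intensities were 35.2, 31.4 and 39.2 on the UNC0638 arrays, against 50.8, 39.4 and 45.3 on the DMSO arrays, so that the groups nearly met. Vars2, the valyl enzyme, was at -0.21 with groups apart and an interval that included 0. Lars2, the leucyl enzyme, had intensities of 98.1, 88.1 and 127 on the UNC0638 arrays, against 121, 122 and 108 on the DMSO arrays. Its UNC0638 3 value was the highest of the 6, the groups overlapped, and the log2 difference was -0.15 (95% interval -0.43 to 0.12).

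Rars2 (-0.12), Ears2 (-0.11), Sars2 (-0.087), Cars2 (-0.081) and Aars2 (-0.030), which charge arginine, glutamate, serine, cysteine and alanine tRNAs in the organelle, had overlapping groups. Mars2 was at 0.0028 and Wars2 at 0.038, and Mars2 took the opposite sign under quantile normalization (-0.018) and median centring (-0.029). Hars2, the mitochondrial histidyl enzyme, had intensities of 109, 117 and 112 on the UNC0638 arrays, against 93.7, 116 and 96.8 on the DMSO arrays. The groups overlapped through DMSO 2, and the log2 difference was 0.13 (95% interval -0.085 to 0.34). Fars2, the mitochondrial phenylalanyl enzyme, was the highest member, with intensities of 166, 233 and 198 on the UNC0638 arrays, against 146, 187 and 180.5 on the DMSO arrays. The range within each group exceeded the gap between the means (log2 difference 0.20, SE 0.134, adjusted p = 0.636).

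Cytosolic and mitochondrial enzymes were set side by side by their differences, because intensities of different probe sets cannot be compared. The 17 cytosolic genes had a median log2 difference of -0.23 and 17 of 17 below 0, and the 16 mitochondrial enzymes a median of -0.11 and 12 of 16 below 0. Groups did not overlap in 12 of the 17 cytosolic and 6 of the 16 mitochondrial genes, UNC0638 being lower in each, against 7.4% of all genes. On the 3 UNC0638 arrays the cytosolic mean relative to DMSO was -0.33, -0.25 and -0.15, and the mitochondrial mean -0.22, -0.14 and -0.084. On each array the cytosolic mean was the lower. The medians were -0.30, -0.24 and -0.15 over the cytosolic genes and -0.15, -0.12 and -0.14 over the mitochondrial ones, so that the arrays kept the same order in the means but not in the medians. No test was made of this difference, because the members were chosen with results known.

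Matched by amino acid, the compartments did not separate cleanly. Among 15 pairs over 13 amino acids, the cytosolic gene had the lower difference in 8 and the mitochondrial gene in 7, with a median difference between them of -0.031. The widest gap was for histidine, with Hars at -0.39 and Hars2 at 0.13. Phenylalanine (Farsb -0.23, Farsa -0.095, Fars2 0.20), methionine (Mars1 -0.40, Mars2 0.0028) and tryptophan (Wars -0.32, Wars2 0.038) ran the same way. Tyrosine ran the other way, with Yars at -0.24 and Yars2 at -0.54, as did asparagine (Nars -0.22, Nars2 -0.37) and threonine (Tars -0.32, Tars2 -0.42). Leucine enzymes differed little between compartments, with Lars at -0.19 and Lars2 at -0.15. For isoleucine this depended on the row, with Iars2 at -0.34, the brighter Iars row at -0.33 and the other Iars row at -0.014. The fused cytosolic Eprs, at -0.15, has the separate mitochondrial counterparts Ears2 at -0.11 and Pars2 at -0.25.

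**Figure D3:**
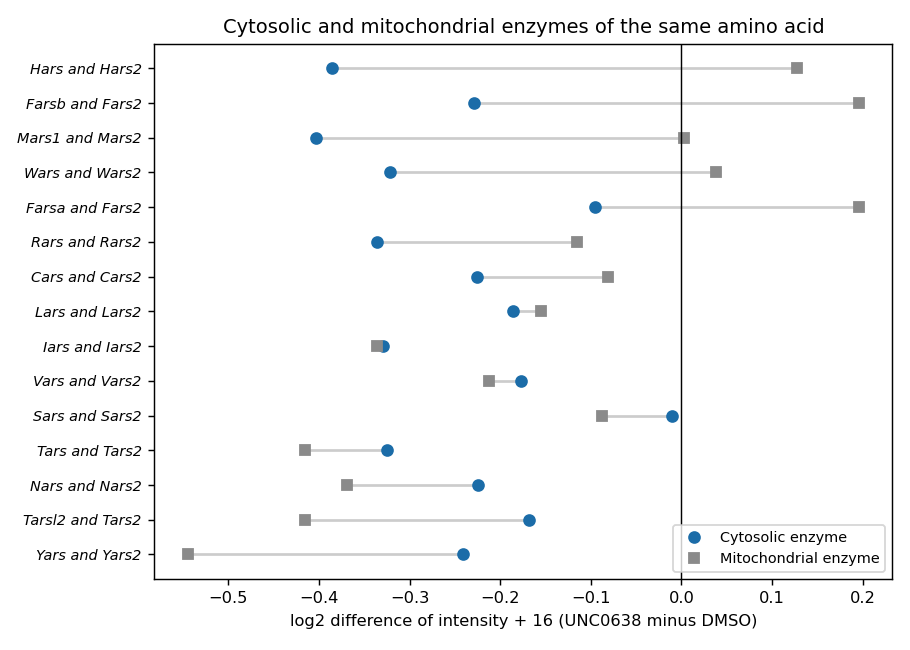
Log2 difference of intensity + 16 (UNC0638 minus DMSO) of the cytosolic gene (circle) and the mitochondrial gene (square) for each amino acid with both measured, ordered by the gap between them. The cytosolic gene is lower in the upper 8 pairs and the mitochondrial gene in the lower 7. Iars is drawn from its brighter row only.

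Brightness moved with the compartment. The DMSO means had a median of 819 over the cytosolic genes and of 117 over the mitochondrial ones, and the added 16 shrinks differences of dim rows. With a pseudocount of 1 the medians were -0.24 and -0.13. Among rows with a mean of 100 to 400 over the 6 arrays, the 7 cytosolic genes had a median of -0.23 and the 9 mitochondrial genes one of -0.12, beside -0.026 over all 4863 genes in that range. Of the 16 members at 400 or above, 16 lay below 0 with a median of -0.32, beside 56.8% below 0 and a median of -0.032 over all 3232 genes there. These 16 pool the roles, and the 10 cytosolic enzymes among them had a median of -0.27. Shares over all genes also rose with brightness. Below 100, at 100 to 400 and at 400 or above, all UNC0638 arrays lay below all DMSO arrays in 3.28%, 11.8% and 15.8% of all genes. Among members these shares were 33.3%, 50% and 81.25%. At an unadjusted limma p under 0.05, 1.74%, 12.1% and 13.8% of all genes were lower, beside 16.7%, 43.75% and 81.25% of members. The part of brightness in the gap between compartments was not tested.

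Medians by catalytic class were close. The 18 class I genes had a median of -0.22 and the 16 class II genes one of -0.23, Eprs holding a domain of each and being left out of both. In 9 of 18 and 9 of 16 the unadjusted limma p was under 0.05, all of them lower, against 6.21% lower and 6.47% higher over all genes.

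The UNC0638 arrays did not depart from DMSO by the same amount. Over all 38 genes the mean relative to DMSO was -0.29 on UNC0638 1, -0.23 on UNC0638 2 and -0.15 on UNC0638 3, against 0.027, 0.0021 and -0.029 on the DMSO arrays. UNC0638 1 held the lowest of the 6 values for 17 members, UNC0638 2 for 11 and UNC0638 3 for 5. The scaffold genes followed another order, with means of -0.35, -0.49 and -0.42 on UNC0638 1, 2 and 3. Over all genes tested the same means were -0.014, 0.016 and 0.017, in values whose normalization between arrays is not known.

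**Figure D4:**
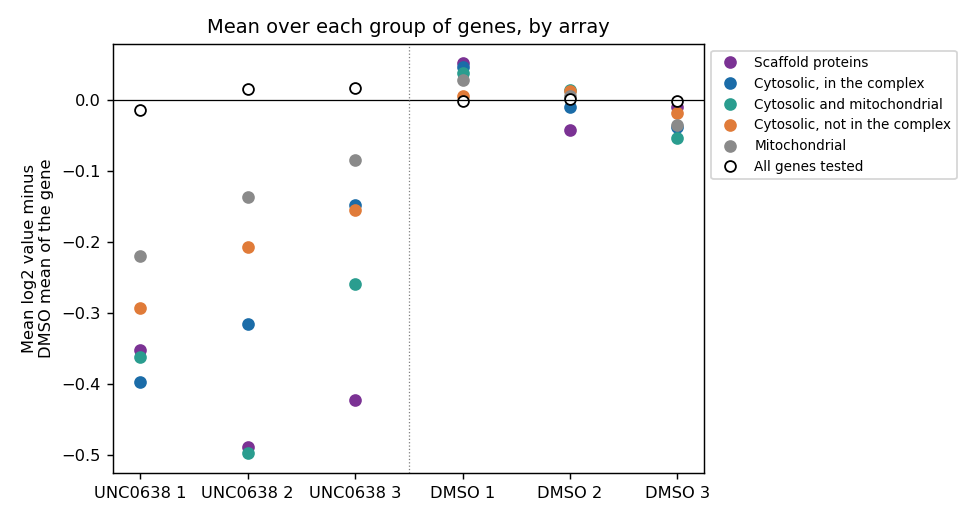
Mean over each group of genes of the log2 value minus the gene's DMSO mean, for the 3 UNC0638 arrays and the 3 DMSO arrays. All groups of synthetase and scaffold genes lie below 0 on every UNC0638 array, and the mean over all genes tested (open circles) lies between -0.014 and 0.017.

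Promoters were examined for the binding sequences of factors known to drive synthetase genes. RefSeq gave promoters for 29 of the 38 genes (31 sequences of 300 bases, from 250 before to 50 after the start site). TGATGNAA, the composite site of C/EBP and ATF factors through which Atf4 acts, was found on either strand in 4 of the 31, and in 3.97% of all 32851 promoters in the table. The 4 were Gars, Tars, Iars and Yars, and they are shown with 11 bases on each side, 5′ to 3′ in the direction of the motif, which is in capitals.
Gars (chr6:55037960-55037989, minus strand): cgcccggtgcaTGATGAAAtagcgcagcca
Tars (chr15:11399655-11399684, plus strand): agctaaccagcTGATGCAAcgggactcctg
Iars (chr13:49682126-49682155, minus strand): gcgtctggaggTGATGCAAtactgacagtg
Yars (chr4:129189895-129189924, plus strand): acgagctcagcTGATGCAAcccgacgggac
The leftmost base of the site lies at -30 from the start site in Gars, -15 in Tars, 8 in Iars and 4 in Yars, counted along the gene's strand. Tars, Iars and Yars share the letters TGATGCAA, and Gars has TGATGAAA.

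These 4 genes had a median log2 difference of -0.28, beside -0.17 over the other 25 with a promoter. Iars enters this median and those of the E-box and CCAAT genes below by its brighter row, while its other row was at -0.014. CACGTG, the E-box bound by Myc and its partners, was present in 4 of the 31 member promoters (Ears2, Farsb, Iars and Tars) and in 7.15% of all promoters. The 4 genes with it had a median of -0.28, and the 25 without it -0.21. The CCAAT box, looked for after the values were known, was present in 15 of 31 and in 37.4% of all promoters. The 15 genes with it, all 3 scaffold genes among them, had a median of -0.32, and the 14 without it -0.15. A match is only a match of letters in this window, and CCAAT is too short to mark a bound site.

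Neighbouring genes served as a view of the surroundings. The 36 nearest measured protein-coding genes that are not members had a median log2 difference of -0.035, 21 of 36 below 0 (46.1% of all genes), and 0 past the limma threshold. At an unadjusted p under 0.05, 5 were lower and 1, Ddit3, was higher, against 6.21% and 6.47% of all genes. Hars and Hars2 are neighbours whose annotated ranges touch, and they were at -0.39 and 0.13. Mars1 overlaps Ddit3, which encodes the stress factor Chop, in annotation, and Mars1 was at -0.40 while Ddit3 was at 0.33 (adjusted p = 0.225). Eif2ak1, which overlaps Aimp2 and encodes a kinase of the translation factor eIF2, was at 0.017. Annotated ranges touched those of the neighbour for 9 members, and whether probes there share signal was not tested.

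The steps before and after tRNA charging had medians near that of the synthetases, but the elongation genes were split by compartment. Of 19 measured genes of tRNA processing and export, 0 passed the threshold, 18 lay below 0 (46.1% of all genes), and the median was -0.24. Xpot, which carries mature tRNA out of the nucleus, had intensities of 345, 370.1 and 394 on the UNC0638 arrays, against 516, 499 and 458 on the DMSO arrays, groups apart (log2 difference -0.39, limma adjusted p = 0.0971). Trnt1, which adds the CCA end that the synthetases charge, was at -0.45 (adjusted p = 0.159). Rpp25, a protein of the RNase P and MRP enzymes, had the largest difference of the list at -0.59, with overlapping groups (adjusted p = 0.541). At an unadjusted p under 0.05, 8 of the 19 were lower and 1 higher, against 6.21% and 6.47% of all genes.

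Of 10 genes for organelle amidation, initiator formylation and editing, 0 passed, 10 lay below 0 (46.1% of all genes), and the median was -0.21. The largest difference was that of Aarsd1, an editing protein that clears wrongly charged alanine tRNA, at -0.47 (limma adjusted p = 0.132). Of 9 measured elongation genes 0 passed, and all 9 lay below 0, against 46.1% of all genes. Their median of -0.22 was the value of Eef1akmt1, a methyltransferase gene and not a factor. It lay between the mitochondrial genes and the cytosolic factors of the list, and describes neither. The 4 mitochondrial genes in that list were Gfm2 (-0.55), a ribosome recycling factor, and the elongation factors Tsfm (-0.46), Tufm (-0.42) and Gfm1 (-0.41). Tsfm had intensities of 139, 121 and 149 on the UNC0638 arrays, against 189.8, 193 and 195 on the DMSO arrays, with groups apart (adjusted p = 0.0741). The cytosolic factors Eef1a1, Eef1b2, Eef1d and Eef2 lay between -0.16 and -0.052.

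Amino acid transporters lay on both sides of 0. Of 16 genes 0 passed, 7 lay below 0, a share near the 46.1% of all genes, and the median was 0.057. At an unadjusted limma p under 0.05, 3 were lower and 3 higher, against 6.21% and 6.47% of all genes. The largest difference was that of Slc7a6, a transporter of basic amino acids and large neutral ones, at -0.51 (adjusted p = 0.0899). Slc36a4 was at the other end at 0.35.

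**Figure D5:**
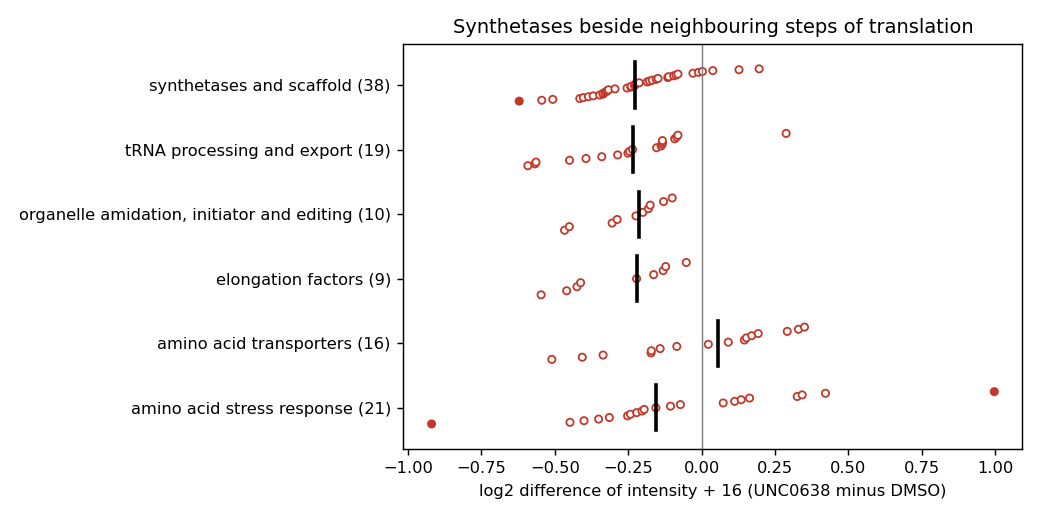
Log2 difference of intensity + 16 (UNC0638 minus DMSO) of each gene in the synthetase group and in 5 further lists, with the number of genes in brackets, a bar at the median and filled points for genes past the adjusted threshold. The medians run from -0.24 for tRNA processing and export to 0.057 for amino acid transporters. The list of elongation factors also holds Eef1akmt1 and Gfm2.

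The amino acid stress response was divided. Of 21 measured genes, 1 fell and 1 rose past the threshold, against 0.301% and 0.371% of all genes, and the median was -0.16. Stc2, which encodes the secreted stress glycoprotein stanniocalcin 2, had intensities of 115, 127 and 122 on the UNC0638 arrays, against 240.3, 265 and 227 on the DMSO arrays. Stc2 fell, with groups far apart (log2 difference -0.92, SE 0.085, limma adjusted p = 0.00684), and over the 15 alternatives it missed the threshold only without UNC0638 1 (adjusted p = 0.0534). Atf3, an immediate early and stress-induced transcription factor, had intensities of 704, 906 and 943 on the UNC0638 arrays, against 346, 401 and 515 on the DMSO arrays, and it rose (log2 difference 1.00, SE 0.159, adjusted p = 0.0378). That call was lost without UNC0638 1, 2 or 3 or without DMSO 1 or 2 (adjusted p of 0.0724, 0.157, 0.117, 0.0796 and 0.147), and also with a pseudocount of 64 (0.0935) or every row tested (0.0508). Atf4 itself was at -0.072 (95% interval -0.34 to 0.20), with overlapping groups. At an unadjusted limma p under 0.05, 5 of the 21 were lower and 4 higher, against 6.21% and 6.47% of all genes. Besides Stc2 the lower ones were Phgdh (-0.45), Psph (-0.35) and Psat1 (-0.31), the enzymes of serine synthesis, and Mthfd2 (-0.40), a mitochondrial folate enzyme, each with groups apart. Besides Atf3 the higher ones were Ddit3, Chac1 and Nupr1, at 0.33, 0.34 and 0.42. None of these 7 genes passed the threshold, and Asns, asparagine synthetase, was at -0.24 with overlapping groups.

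The sensor of uncharged tRNA, Eif2ak4, had a log2 difference of -0.018 (95% interval -0.28 to 0.25), its partner Gcn1 one of -0.059 and its inhibitor Impact one of 0.18, all with overlapping groups. Of 11 measured genes that interferon-gamma is known to induce together with Wars, 0 passed the threshold, and the median was -0.040. Of the 11, 7 lay below 0, against 46.1% of all genes. At an unadjusted limma p under 0.05, 0 were lower and 1 higher, against 6.21% and 6.47% of all genes. Cxcl10 had the largest difference of these at -0.40 (adjusted p = 0.497). Of 7 genes of the Myc network 0 passed, 3 lay below 0 (46.1% of all genes), and the median was 0.032. At an unadjusted limma p under 0.05, 1 was lower and 1 higher, against 6.21% and 6.47% of all genes. Myc had intensities of 2026, 2331 and 2257 on the UNC0638 arrays, against 2963, 3251 and 2823 on the DMSO arrays, with groups apart (log2 difference -0.45, adjusted p = 0.0808), and its antagonist Mxd1 was at 0.31. Mxd4 (0.20), Mnt (0.074), Mycn (0.032), Max (-0.052) and Mxi1 (-0.18) had overlapping groups.

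Markers of mature myeloid cells had higher means on the UNC0638 arrays. Of 4 macrophage markers 4 had groups that did not overlap, UNC0638 being higher, against 9.59% of all genes, and 0 passed the threshold. Their summed intensity was 5693 to 6218 in UNC0638 and 3814 to 4872 in DMSO. Of 4 mature neutrophil markers 4 had log2 differences above 0 and Ltf, which encodes lactoferrin, rose, 1 of 4 against 0.371% of all genes (0.77, limma adjusted p = 0.0437), a call lost without UNC0638 1, 2 or 3 or without DMSO 1 or 3 (adjusted p of 0.132, 0.149, 0.124, 0.082 and 0.11), and also with median centring (0.0514), a pseudocount of 64 (0.0921) or every row tested (0.0578). Their summed intensity was 535 to 572 in UNC0638 and 306 to 433 in DMSO. The part of these cells in the synthetase differences was not tested.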

How the data were processed

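Expression was measured on Affymetrix arrays from Trizol-extracted RNA, per the labels' protocols. The authors deposited intensities for 34760 probe sets on 6 arrays, already processed to a single value each. How they corrected background, summarised and normalized is not stated by the labels, and such steps can shrink differences of dim rows. The values run from 2.74 to 19527, hence a linear scale.

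Of the rows, 21640 carry 1 gene symbol, 1321 several and 11799 none, from GEO's platform annotation. Of these 21640, 21553 were found by Entrez number in the GRCm38.p6 gene table, which changed 0 symbols. Per gene the row with the highest mean was kept, giving 19937 genes, and log2(intensity + 16) was fitted on group with limma 3.58.1 (R 4.3.3; lmFit, eBayes, prior of 4.47 degrees of freedom), with Benjamini-Hochberg adjustment over all genes. Lists were described by counts and medians, with no list test. Members, lists and tests were chosen with earlier results of these data known. Correlations of deviations were -0.066, 0.11 and 0.017 between same-numbered arrays, and -0.13 to 0.11 between the others. With 3 arrays a group they cannot decide whether the numbers pair samples, and the labels do not say. Every member was given values. In the other lists, genes past the threshold or with the largest difference were named, with Xpot and the tRNA sensors. Others (Trnt1, the elongation genes, Slc36a4, the stress genes and the Myc network) were named after their values were seen. Promoters are RefSeq sequences of GRCm38.p6. The fit was tested on simulated data. Figures used matplotlib 3.10.9.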

Additional observations from a re-analysis of the deposited data

How the results depend on the processing

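Over 15 alternatives per gene (2 scalings, dropping the dimmest 40% of genes, averaging or keeping every row of a gene, a trended prior, the replicate number as a block, pseudocounts of 1 and 64, and each array left out), 34 members kept the sign of their log2 difference throughout. The 4 others were near 0, and leaving out 1 array gave -0.13 to 0.056 for Aars2, -0.10 to 0.092 for Mars2, -0.075 to 0.10 for Sars and -0.060 to 0.095 for Wars2. Mars2 was at -0.018 with quantile normalization, -0.029 with median centring, -0.102 without UNC0638 2 and -0.060 without DMSO 2. Sars was at 0.034 with quantile normalization, 0.104 without UNC0638 1 and 0.0087 without DMSO 3. Aars2 was at 0.056 without UNC0638 3 and 0.027 without DMSO 1, and Wars2 at -0.060 without UNC0638 3 and -0.0034 without DMSO 1. No member but Aimp2 passed the threshold in any of them, and Aimp2 passed in 9 of 15. The number past the threshold went to 0 with the replicate block (Aimp2 adjusted p = 0.0706, log2 difference -0.62) and at a threshold of 0.01. Leaving out 1 array gave 0 to 1 lower and 0 to 0 higher past the threshold, 14 to 21 lower and 0 to 1 higher at an unadjusted p under 0.05, and 23 to 28 lower and 0 to 2 higher with groups apart. It gave medians of -0.26 to -0.20 over all members, -0.28 to -0.21 over cytosolic and -0.15 to -0.095 over mitochondrial enzymes. The mitochondrial median was also -0.15 with median centring, and -0.083 with a pseudocount of 64. The dim filter left 37 of 38 members. Over all genes, calls numbered 134, against 73 with the block, 49 with a pseudocount of 64 and 10 to 69 with 1 array left out. The calls of Stc2, Atf3 and Ltf, rerun after seeing the data, held in 14, 8 and 6 of 15 alternatives, Ltf losing its own with the block as well (adjusted p = 0.0754). With 3 arrays a group, differences near the members' median could not be told from 0 singly after adjustment. The cause of these shifts was not tested.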
